A study of Rattus norvegicus with 14 samples.

Results

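Sycp2, Sycp3 and Stag3, 3 genes that encode parts of the meiotic chromosome axis, were followed in the fetal gonads of rats. They were taken by name: every probe set of the array whose annotated symbol was 1 of the 3 was included, which gave 1 probe set a gene, 3 of the 15866 probe sets tested and 3 of the 10411 genes with a probe set of their own. RNA was read on 14 Affymetrix rat arrays with 1 channel, and 2 arrays made up each of 7 groups. The fresh gonads were ovaries or testes taken on embryonic day 13, 14 or 16, written E13, E14 and E16. The last group was testis taken at E13 and then cultured for 3 days. Each RNA sample was a pool of 20 to 40 whole gonads, and the pools of a group were independent. Culture was on floating filters, in CMRL 1066 with penicillin and streptomycin, insulin, L-glutamine, transferrin and albumin, and fresh medium was given on day 2. No group carried a named allele or drug, and the strain is not given in the sources used here. Values are intensities on a linear scale, 1 per probe set and array. Since whole gonads were pooled, fewer germ cells and less RNA per germ cell cannot be told apart.

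Meiotic chromosomes are folded into loops along a protein axis that forms as germ cells enter meiosis. SYCP2 and SYCP3 assemble along this axis and become the lateral elements of the synaptonemal complex, the ladder-like structure that joins paired homologous chromosomes. STAG3 is the meiosis-specific STAG subunit of cohesin, the ring complex that holds sister chromatids together and on which the axis is built. In mammals, germ cells of the fetal ovary enter meiosis before birth, whereas those of the fetal testis stop dividing and enter meiosis only after birth.

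The 3 genes lie on different chromosomes. In RefSeq's rat assembly GRCr8, Sycp2 (gene 83820) spans chr3:185814033-185876516 on the minus strand, Sycp3 (gene 25561) spans chr7:24761476-24775933 on the plus strand, and Stag3 (gene 114522) spans chr12:22398291-22428548 on the plus strand. All 3 had an entry in RefSeq's promoter table, which holds 250 bases before and 50 after each start site. Their promoters are shown as a description only, and no link between them and the levels of the 3 genes was tested. Short motifs were searched on both strands in that window: TCCCGC (reverse complement GCGGGA), the core of E2F-type sites; CACGTG, a palindromic E-box; and AGGTCA (reverse complement TGACCT), a core element of sites for retinoid and other nuclear receptors. No motif overlapped another in these windows. The stretches upstream of the annotated genes follow, 5′ to 3′ on the strand of the gene, with motif matches in capitals.
Sycp2, chr3:185876517-185876742, minus strand: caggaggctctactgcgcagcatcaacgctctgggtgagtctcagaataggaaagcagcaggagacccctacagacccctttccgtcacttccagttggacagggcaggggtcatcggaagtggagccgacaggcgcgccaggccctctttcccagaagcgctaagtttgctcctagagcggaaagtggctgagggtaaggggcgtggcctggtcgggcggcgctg
Sycp3, chr7:24761226-24761475, plus strand: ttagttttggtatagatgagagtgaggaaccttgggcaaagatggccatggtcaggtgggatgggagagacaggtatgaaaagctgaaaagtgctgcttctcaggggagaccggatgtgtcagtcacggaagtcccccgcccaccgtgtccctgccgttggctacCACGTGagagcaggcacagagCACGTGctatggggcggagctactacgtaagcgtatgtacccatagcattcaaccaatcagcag
Stag3, chr12:22398158-22398290, plus strand: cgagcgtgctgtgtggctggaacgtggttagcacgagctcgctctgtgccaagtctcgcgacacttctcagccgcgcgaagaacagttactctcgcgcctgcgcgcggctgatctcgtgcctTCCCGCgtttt

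TCCCGC was found once in each of the 3 promoters, on the strand of the gene. Each match is shown here in a window of 30 bases, with the motif in capitals.
Sycp2, chr3:185876485-185876514, minus strand: tggacgagcgctTCCCGCtttccgttggct
Sycp3, chr7:24761494-24761523, plus strand: ggctttattttcTCCCGCccaaaggctagg
Stag3, chr12:22398268-22398297, plus strand: gatctcgtgcctTCCCGCgtttttctcaga

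Counted from the start site of the table, the TCCCGC match ran from base -10 to -5 in Sycp2, from 31 to 36 in Sycp3 and from -128 to -123 in Stag3. For Sycp2 and Stag3 the annotated gene begins upstream of that start site. The motif was not confined to the 3 genes: the promoter of Sycp1, a partner gene described below, held TCCCGC from -89 to -84. Of 33469 rat promoters of the same length, 6268 (18.7%) held TCCCGC on either strand. CACGTG was found 2 times in Sycp3, from -85 to -80 and from -64 to -59, and in neither other promoter; 6.42% of all promoters held it. AGGTCA was found in Stag3 alone, from 17 to 22, against 16.2% of all promoters. The windows held 20 CpG dinucleotides in Sycp2, 11 in Sycp3 and 24 in Stag3, against a median of 7 and quartiles of 3 and 19 over all promoters, so that Sycp3 lay between the quartiles. G and C content was 62%, 55.3% and 58%, against a median of 51.7% and quartiles of 44.7% and 60.3%. These matches describe letters only, and binding was not measured.

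**Figure D1:**
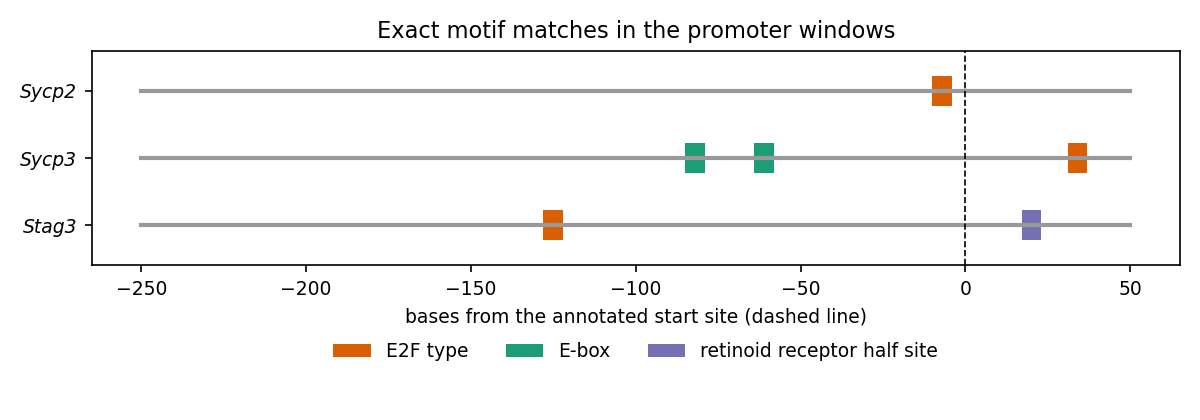
Exact motif matches in the promoter windows of Sycp2, Sycp3 and Stag3; the horizontal axis gives bases from the annotated start site (dashed line), and each coloured block is 1 match. The E2F-type motif lies once in each window, at a different distance in each; the 2 E-box matches lie in Sycp3 and the retinoid receptor element in Stag3.

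The arrays followed their labels in most respects. Each had been scaled to a trimmed mean of 125, and array medians ran from 59.6 to 69.2. Chip batch and chip period, used below, were inferred here from the form of the array labels. Amh, a hormone of Sertoli cells, stood between 476.7 and 1092.8 in E14, E16 and cultured testis and at most 38.5 in ovary. Xist, the RNA of the inactive X chromosome in female cells, went against the label in 4 arrays. It was 36.2, 269.2 and 151.1 in replicate 1 of E13, E14 and cultured testis, against at most 4.8 in the other testis arrays, and 12.8 in E16 ovary replicate 2, against 151.7 to 672.3 in the other ovary arrays. Actin signal at the 3′ end over that at the 5′ end, a sign of RNA breakdown when high, stood at 2.97 in replicate 2 of the cultured testis and 3.34 in replicate 1 of E16 ovary. The remaining 12 arrays gave 1.47 to 2.13. Results for the 3 genes are therefore also given without these arrays.

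**Figure D2:**
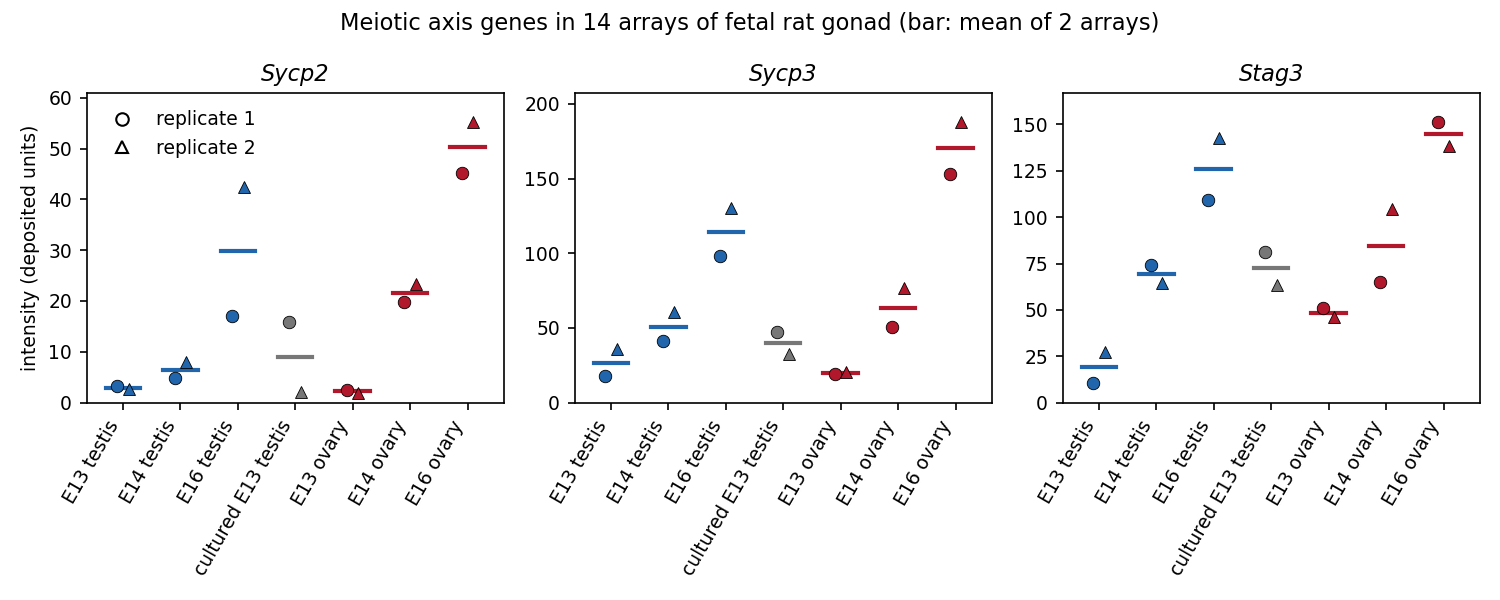
Intensity (deposited units, linear scale from 0) of Sycp2, Sycp3 and Stag3 in each of the 14 arrays; circles are replicate 1, triangles replicate 2, and bars the mean of 2 arrays. In both sexes the arrays of each age lie above those of the age before for Sycp3 and Stag3, and the highest mean of each gene is in E16 ovary. Sycp2 values of E13 and of E14 testis lie near the floor.

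Sycp3, the lateral element protein most used as a marker of the meiotic axis, was lowest at E13 and highest in E16 ovary. Its intensity was 17.8 and 35.9 in E13 testis, 41.0 and 60.6 in E14 testis, and 98.1 and 130.3 in E16 testis. In ovary it was 18.9 and 20.8 at E13, 50.4 and 76.6 at E14, and 152.9 and 188.2 at E16. The cultured testes gave 47.2 and 32.5. From the lowest mean to the highest, the order was E13 ovary (19.85 ± 1.34), E13 testis (26.85 ± 12.8), cultured testis (39.85 ± 10.4), E14 testis (50.8 ± 13.9), E14 ovary (63.5 ± 18.5), E16 testis (114.2 ± 22.8) and E16 ovary (170.55 ± 24.96; all SD, n = 2). Only the last steps separated neighbours: E16 testis lay apart from E14 ovary, and E16 ovary apart from E16 testis, while every other group overlapped the one below it.

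Stag3, the cohesin subunit, differed from Sycp3 in where its low values lay. It was 10.6 and 27.4 in E13 testis, 74.0 and 64.5 in E14 testis, and 109.1 and 142.8 in E16 testis. The ovary gave 51.1 and 46.0 at E13, 64.8 and 104.3 at E14, and 151.5 and 138.6 at E16, and the cultured testis gave 81.3 and 63.4. E13 testis (19 ± 11.9) was thus the lowest group and lay apart from E13 ovary (48.55 ± 3.61), which in turn lay apart from E14 testis (69.25 ± 6.72). Cultured testis (72.35 ± 12.7) and E14 ovary (84.55 ± 27.9) each overlapped the group below them. E16 testis (125.95 ± 23.8) stood apart from these, and E16 ovary (145.05 ± 9.12; all SD, n = 2) overlapped E16 testis.

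Sycp2, which binds SYCP3 along the axis, had a probe set that was dim at the start of the series. It read 3.2 and 2.6 in E13 testis and 2.5 and 1.9 in E13 ovary, values under which lay only 1.19% to 4.64% of the probe sets of the same array. No detection calls were used here, so these E13 values were treated as near the floor, and no linear ratio against them is given. By E14 it read 4.8 and 7.9 in testis and 19.8 and 23.3 in ovary. At E16 it read 17.0 and 42.5 in testis and 45.2 and 55.3 in ovary. The cultured testes differed widely, at 15.9 and 2.0. In order of the means, E13 ovary (2.2 ± 0.424), E13 testis (2.9 ± 0.424) and E14 testis (6.35 ± 2.19) came first, near the floor and in no reliable order, then cultured testis (8.95 ± 9.83), which overlapped E14 testis. E14 ovary (21.55 ± 2.47) followed apart from these, E16 testis (29.75 ± 18.03) overlapped it, and E16 ovary (50.25 ± 7.14; all SD, n = 2) was the highest group and apart from E16 testis.

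All 3 genes rose between E13 and E16 in the ovary. Both E16 ovary arrays stood out above, 1 by Xist and 1 by its actin ratio, so no E16 ovary array was free of these signs. Changes are given as log2 of (intensity + 16), with the standard error from limma. Its p-values were adjusted over all 15866 probe sets, and those under 0.05 count as passing. Sycp3 went from 19.85 to 170.55, 8.59-fold in the means (log2 2.37 ± 0.27, adjusted p = 0.00284). Sycp2 rose by 1.86 ± 0.29 on the log2 scale (adjusted p = 0.0163), and Stag3 rose 2.99-fold (log2 1.32 ± 0.26, adjusted p = 0.0464). Of all probe sets, 73 (0.46%) were higher at E16 by the same rule, and the median change was -0.02. The median of the 3 genes, 1.86, is the value of Sycp2, which depended on the offset as given below. By size of rise, Sycp3 ranked 8th and Stag3 71st of the 15866 probe sets. These ranks hold for the offset of 16 only. Over the settings other than leaving out 1 array, the rise ran from 1.48 to 3.03 for Sycp3 and from 0.89 to 1.56 for Stag3. Sycp2 is given no rank, since its size followed the offset: it was 0.79 with an offset of 64 and 4.0 with an offset of 1, and passed with both. Without E13 ovary replicate 1, all 3 calls were lost (adjusted p of 0.0569 for Sycp3 and 0.155 for Sycp2). The Sycp2 call was also lost without E13 ovary replicate 2 (0.168) or E16 ovary replicate 1 (0.055) or 2 (0.112). The Stag3 call was lost when any 1 of 10 arrays was left out, namely all but the E13 testis and E14 ovary arrays, with adjusted p-values of up to 0.322. With chip period as a block Stag3 gave 1.12 and did not pass (adjusted p = 0.068); both E13 ovary arrays lay in 1 period, and the E16 arrays in 2. Stag3 also missed with an offset of 1, with quantile normalization and without the 2 arrays of highest actin ratio (1.56, 1.28 and 1.26). Without the 4 arrays of discordant Xist the differences were 2.24, 1.75 and 1.38 for Sycp3, Sycp2 and Stag3, and none passed (limma, adjusted p from 0.145 to 0.27).

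Neither step alone passed in the ovary. From E13 to E14 the differences were 1.13 for Sycp3, 1.04 for Sycp2 and 0.61 for Stag3 (limma, adjusted p of 0.564, 0.704 and 1), and from E14 to E16 they were 1.24, 0.82 and 0.71 (adjusted p of 0.293, 0.662 and 0.699). In both steps 0 probe sets of all 15866 were called higher by limma (0%), although 330 (2.08%) and 458 (2.89%) were higher at an unadjusted p under 0.05, among them all 3 genes in each step. Within a single inferred chip batch, E16 exceeded E14 ovary by 1.35 for Sycp3, 0.77 for Sycp2 and 1.05 for Stag3, with 1 array each.

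In the testis, Sycp3 and Stag3 rose over the same days and Sycp2 did not pass. Stag3 went from 19 to 125.95, 6.63-fold (log2 2.05 ± 0.26, adjusted p = 0.00456), and Sycp3 from 26.85 to 114.2, 4.25-fold (log2 1.63 ± 0.27, adjusted p = 0.0168). For Sycp2 the difference was 1.22 ± 0.29 (95% interval 0.57 to 1.86, adjusted p = 0.0948), with both E16 arrays above both E13 arrays, as in 18.9% of all probe sets. By limma, 112 probe sets (0.706%) were higher in E16 testis, and the median change over all was -0.02, against 1.63 for the 3 genes. Stag3 ranked 33rd and Sycp3 59th by size of rise. The Sycp2 difference was 0.47 with an offset of 64 and 2.85 with an offset of 1, where it exceeded that of Stag3 (2.79), and passed with neither. The Stag3 call was lost without E16 testis replicate 2 (adjusted p = 0.0727). The Sycp3 call was lost without E16 testis replicate 1 (0.0519) or 2 (0.202) or E13 testis replicate 1 (0.114). Without the 4 arrays of discordant Xist, Stag3 differed by 1.70 and Sycp3 by 1.32, and neither passed (limma, adjusted p of 0.115 and 0.175). Within the inferred chip period that held an array of each age, E16 exceeded E13 by 1.87 for Stag3, 1.5 for Sycp3 and 1.65 for Sycp2.

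The testis steps were of unequal size between the genes, and none passed. From E13 to E14, Stag3 differed by 1.32 (95% interval 0.75 to 1.90, adjusted p = 0.138), Sycp3 by 0.66 (adjusted p = 0.638) and Sycp2 by 0.24 (adjusted p = 0.953). From E14 to E16 the differences were 0.73, 0.97 and 0.98 (adjusted p of 0.796, 0.508 and 0.571). By limma, 7 probe sets (0.0441%) were called higher in the first step and 19 (0.12%) in the second. At an unadjusted p under 0.05, Stag3 and Sycp3 were higher in the first step and all 3 genes in the second, against 505 (3.18%) and 521 (3.28%) of all probe sets.

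Sycp3 and Stag3 shared one pattern that was looked for after their values had been seen. In each sex, both E14 arrays lay above both E13 arrays and both E16 arrays above both E14 arrays. The Sycp2 values were ordered in the same way, but its first testis step, from 3.2 and 2.6 to 4.8 and 7.9, lay near the floor and has no reliable order. Of the 15866 probe sets, 458 (2.89%) met this in testis, 373 (2.35%) in ovary and 60 (0.378%) in both sexes. The steps of a sex share their E14 arrays. The sexes share no array, but replicate 2 of testis and of ovary lay in the same inferred chip batch at E14, and likewise at E16. By adjusted p, 14 probe sets were higher at E16 than at E13 in both sexes, 12.5% of the 112 in testis and 19.2% of the 73 in ovary. Sycp3 and Stag3 were among these 14. The other named ones were Mgp, Mt3, Enpep, Col6a3, Nbl1, Igfbp7, G0s2, Mfap4, Ctsk, Anxa4 and Cav1. Mgp, Col6a3 and Mfap4 encode proteins of the extracellular matrix.

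**Figure D3:**
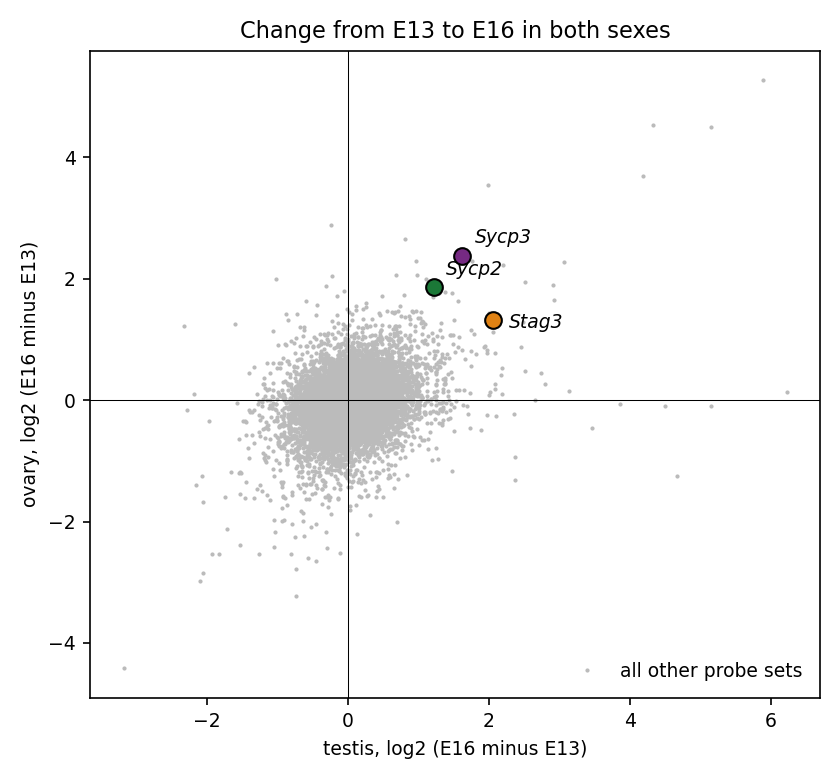
Change from E13 to E16 in testis (horizontal) and ovary (vertical), as the difference of log2(intensity + 16), for all 15866 probe sets; large points are the 3 axis genes. Sycp3 lies at 1.63 and 2.37, Sycp2 at 1.22 and 1.86, and Stag3 at 2.05 and 1.32, with Stag3 alone of the 3 having its larger value in testis.

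At no age did testis and ovary differ beyond the threshold in any of the 3 genes. At E16, Sycp3 was 1.49-fold and Sycp2 1.69-fold higher in ovary by the means, with no overlap of arrays, and Stag3 was 1.15-fold higher with overlap. The arrays of 16.2% of all probe sets lay higher in E16 ovary without overlap. As testis minus ovary these differences were -0.52 for Sycp3 (95% interval -1.11 to 0.06, adjusted p = 0.446), -0.59 for Sycp2 (-1.23 to 0.06, adjusted p = 0.434) and -0.19 for Stag3 (-0.77 to 0.38, adjusted p = 0.829). The intervals therefore allow an ovary excess of more than 1 log2 unit for Sycp2 and Sycp3 as well as none. By limma 276 probe sets (1.74%) differed between the sexes at E16, and 0 of the 3 genes did, also at an unadjusted p under 0.05. Between the E16 arrays of 1 inferred chip batch, ovary exceeded testis by 0.48 for Sycp3 and 0.29 for Sycp2, and Stag3 differed by -0.04. Without the 4 arrays of discordant Xist, testis minus ovary at E16 was -0.39 for Sycp3, -0.48 for Sycp2 and -0.25 for Stag3.

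At the earlier ages the largest sex difference lay in a different gene each time. At E14 it was Sycp2, with arrays of 4.8 and 7.9 in testis against 19.8 and 23.3 in ovary (log2 -0.75 as testis minus ovary, 95% interval -1.39 to -0.11, adjusted p = 0.565). The testis values were close to the floor, so no fold is given, and the difference was -0.28 with an offset of 64 and -1.65 with an offset of 1. The arrays of 16.2% of all probe sets lay higher in E14 ovary without overlap. Sycp3 and Stag3 overlapped between the sexes at E14 (-0.25 and -0.21, adjusted p of 0.865 and 0.888). At E13 it was Stag3, at 10.6 and 27.4 in testis against 51.1 and 46.0 in ovary (2.56-fold, log2 -0.92, 95% interval -1.5 to -0.35, adjusted p = 0.481), and 19.1% of all probe sets lay higher in E13 ovary without overlap. Sycp3 (0.22, adjusted p = 0.83) and the dim Sycp2 (0.05, adjusted p = 0.966) had means no lower in testis at E13. By limma 2 probe sets (0.0126%) differed at E13 and 22 (0.139%) at E14. At an unadjusted p under 0.05, Stag3 differed at E13 and Sycp2 at E14 (limma), against 1236 (7.79%) and 1270 (8%) of all probe sets. Without the 4 arrays of discordant Xist, testis minus ovary at E13 was -0.57 for Stag3, 0.53 for Sycp3 and 0.03 for Sycp2. The E14 differences were then -0.65 for Sycp2, -0.03 for Sycp3 and -0.29 for Stag3.

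Averaged over the 3 ages, all 3 genes were lower in testis, by 0.44 for Stag3, 0.43 for Sycp2 and 0.18 for Sycp3, and none passed (limma, adjusted p of 0.151, 0.196 and 0.523), against 366 probe sets (2.31%) that did. At an unadjusted p under 0.05, Stag3 and Sycp2 differed, as did 3177 (20%) of all probe sets. Without the 4 arrays of discordant Xist the Sycp3 difference was 0.04, on the other side of 0. Whether the sex difference itself changed from E13 to E16 was tested as an interaction. It was -0.75 ± 0.38 for Sycp3, -0.64 ± 0.41 for Sycp2 and 0.73 ± 0.37 for Stag3, so the sign for Stag3 opposed that of the other two. None passed (limma, adjusted p of 0.804, 0.881 and 0.804, and 0 of 3 at an unadjusted p under 0.05), against 23 probe sets (0.145%). The larger rise of Sycp3 in ovary and of Stag3 in testis was thus not shown to differ between the sexes.

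**Figure D4:**
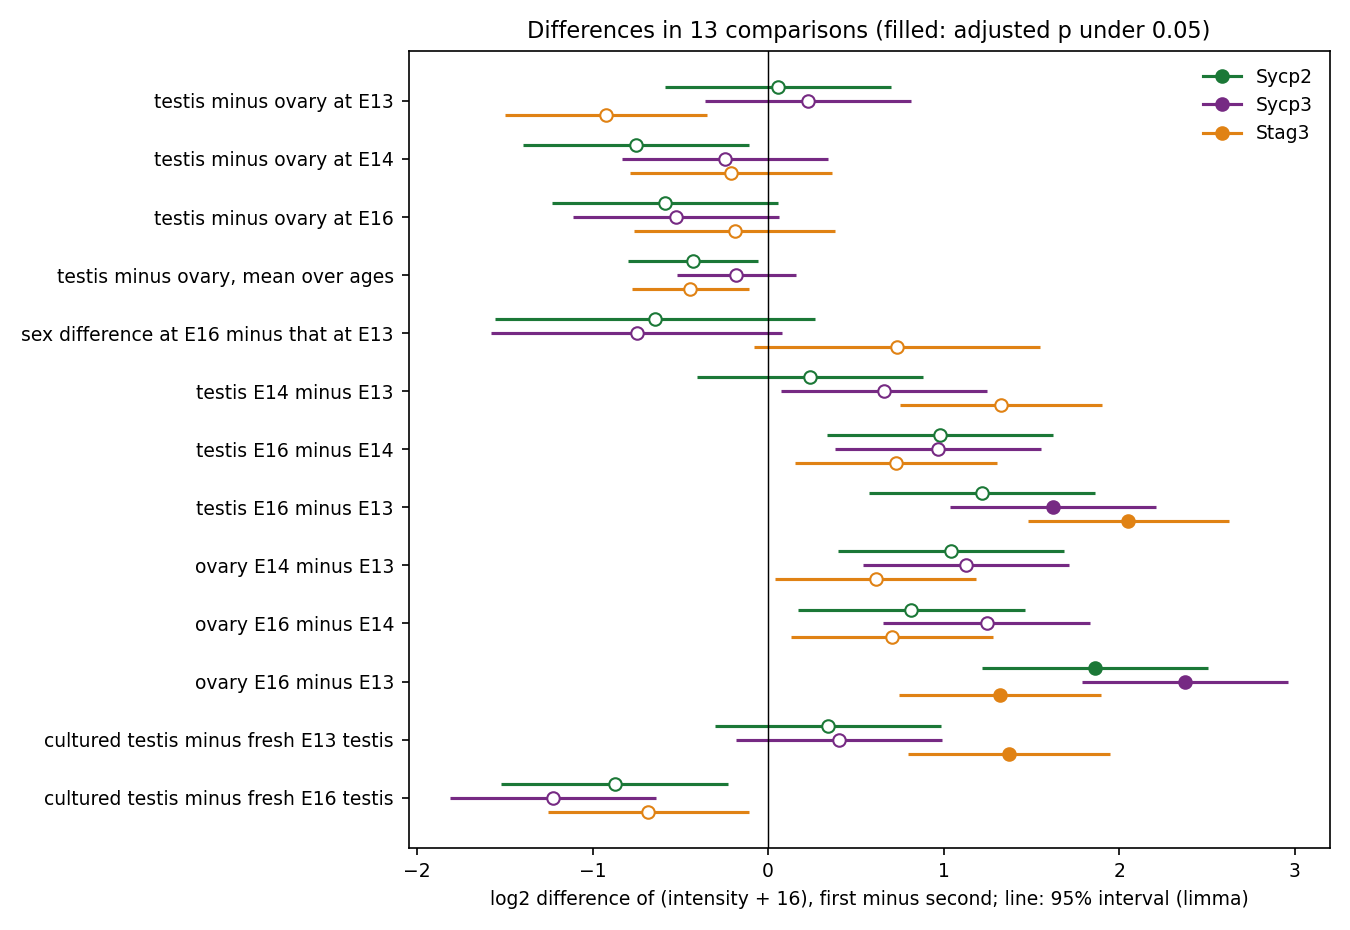
Differences of log2(intensity + 16) for Sycp2, Sycp3 and Stag3 in the 13 comparisons, first group minus second; points are limma estimates, lines their 95% intervals, and filled points have an adjusted p under 0.05. The 6 filled points are the 3 genes in ovary and Sycp3 and Stag3 in testis between E13 and E16, and Stag3 in cultured against fresh E13 testis.

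After 3 days in culture, Stag3 was higher than in the fresh E13 testis, and Sycp3 and Sycp2 did not pass. Both cultured arrays stood out above, 1 by Xist and 1 by its actin ratio, so neither was free of these signs. The Stag3 arrays were 81.3 and 63.4 after culture against 10.6 and 27.4 before (3.81-fold, log2 1.37 ± 0.26, adjusted p = 0.0307). Sycp3 differed by 0.40 ± 0.27 (95% interval -0.18 to 0.99, adjusted p = 0.616), and its arrays, 47.2 and 32.5, overlapped those of fresh E13 testis. Sycp2 differed by 0.34 ± 0.29 (95% interval -0.30 to 0.99, adjusted p = 0.725), with 1 cultured array above and 1 below both fresh arrays. By limma 168 probe sets (1.06%) were higher after culture. Without the 4 arrays of discordant Xist, which include replicate 1 of both groups, Stag3 differed by 0.87 and did not pass (limma, adjusted p = 0.401), and Sycp3 and Sycp2 stood at -0.10 and -0.05. The Stag3 call was also lost without either cultured array, E13 testis replicate 1, either E14 testis array or either E13 ovary array, with adjusted p-values of up to 0.178. With chip period as a block Stag3 gave 1.16 (limma, adjusted p = 0.0601), and offsets of 1 and 64 gave adjusted p-values of 0.0599 and 0.0545. Without the 2 arrays of highest actin ratio Stag3 gave 1.52 and did not pass. Globin and other red blood cell genes differed sharply between the cultured arrays: the summed intensity of 5 measured of 8 listed was 1058.8 in one and 9173.6 in the other. The part of this difference in the spread of Sycp2 was not tested.

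Against fresh testis of the same total age, E16, the cultured testes were lower in all 3 genes, with no overlap of arrays and no call. Sycp3 was 2.87-fold higher in fresh E16 testis (cultured minus fresh, log2 -1.22, 95% interval -1.81 to -0.64, adjusted p = 0.247). Sycp2 differed by -0.87 (adjusted p = 0.594) and Stag3 by -0.68 (95% interval -1.26 to -0.11, adjusted p = 0.661). By limma 4 probe sets (0.0252%) were lower after culture than in E16 testis. All 3 genes were lower at an unadjusted p under 0.05, against 488 (3.08%) of all probe sets, and 15.8% of all probe sets were lower without overlap. Between the arrays of each of 2 chip batches, E16 testis exceeded cultured testis by 1.59 and 0.85 for Sycp3, by 1.70 and 0.05 for Sycp2 and by 1.00 and 0.36 for Stag3. With chip batch as a random block, Sycp3 passed (limma, adjusted p = 0.0442). Without the 4 arrays of discordant Xist, cultured minus fresh E16 testis was -1.41 for Sycp3, -1.29 for Sycp2 and -0.83 for Stag3. Set beside fresh E14 testis, which the design did not test, cultured Stag3 was 1.04-fold and cultured Sycp3 0.784-fold in the means, and the arrays of both genes overlapped.

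Few of the genes that act directly with the 3 could be read on this array. Of 18 listed partners of the axis and the synaptonemal complex, 2 were matched. Sycp1, which encodes the transverse filament that bridges paired axes, had group means of 1.5 to 7.35, near the floor in every group. Sun1, a nuclear envelope protein that anchors chromosome ends in meiosis, had group means of 172 to 289. Neither passed between E13 and E16 in either sex by limma (adjusted p of 0.925 and 0.994 in testis, and of 0.934 and 0.717 in ovary). The other meiosis-specific cohesin subunits on that list, Smc1b, Rec8 and Rad21l1, were not analysed here.

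General cohesin, the complex of every dividing cell in which STAG3 takes the place of another STAG subunit during meiosis, gave no call over the same days. Of 19 listed genes of the ring, its loaders, releasers and protectors, 13 were measured, and 0 passed between E13 and E16 in either sex by limma. Their median change was 0.12 in testis and -0.10 in ovary. Stag2, a STAG subunit of the general complex, had means of 431, 502 and 387 in testis at E13, E14 and E16 and of 333, 325 and 416 in ovary (E16 minus E13 -0.15 and 0.28, limma, adjusted p of 0.923 and 0.844). Rad21, the kleisin that closes the ring, had means of 638, 738 and 672 in testis and 578, 624 and 539 in ovary. Smc3, an arm of the ring, had 501, 580 and 599 in testis and 409, 531 and 595 in ovary (0.28 and 0.50, limma, adjusted p of 0.783 and 0.548).

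Genes of meiotic recombination also gave no call over these days. Of 32 listed, 8 were measured and 0 passed in either sex, with a median change of 0.26 in testis and 0.07 in ovary. Rec114, which helps to form the double-strand breaks of meiosis on the axis, had means of 57.4, 78.2 and 123.2 in testis and 69.15, 97.5 and 124.55 in ovary from E13 to E16. Its differences of 0.95 and 0.72 did not pass (limma, adjusted p of 0.118 and 0.266). Rad50, a repair protein of all cells, had 75.1, 74 and 120.1 in testis and 73.45, 95.8 and 151 in ovary (0.61 and 0.89, limma, adjusted p of 0.306 and 0.0994). Trip13, which removes axis proteins once homologues have paired, and Nbn, a partner of Rad50, did not pass either. Among 17 measured of 18 cell cycle genes, 0 passed, with medians of -0.14 in testis and -0.18 in ovary.

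**Figure D5:**
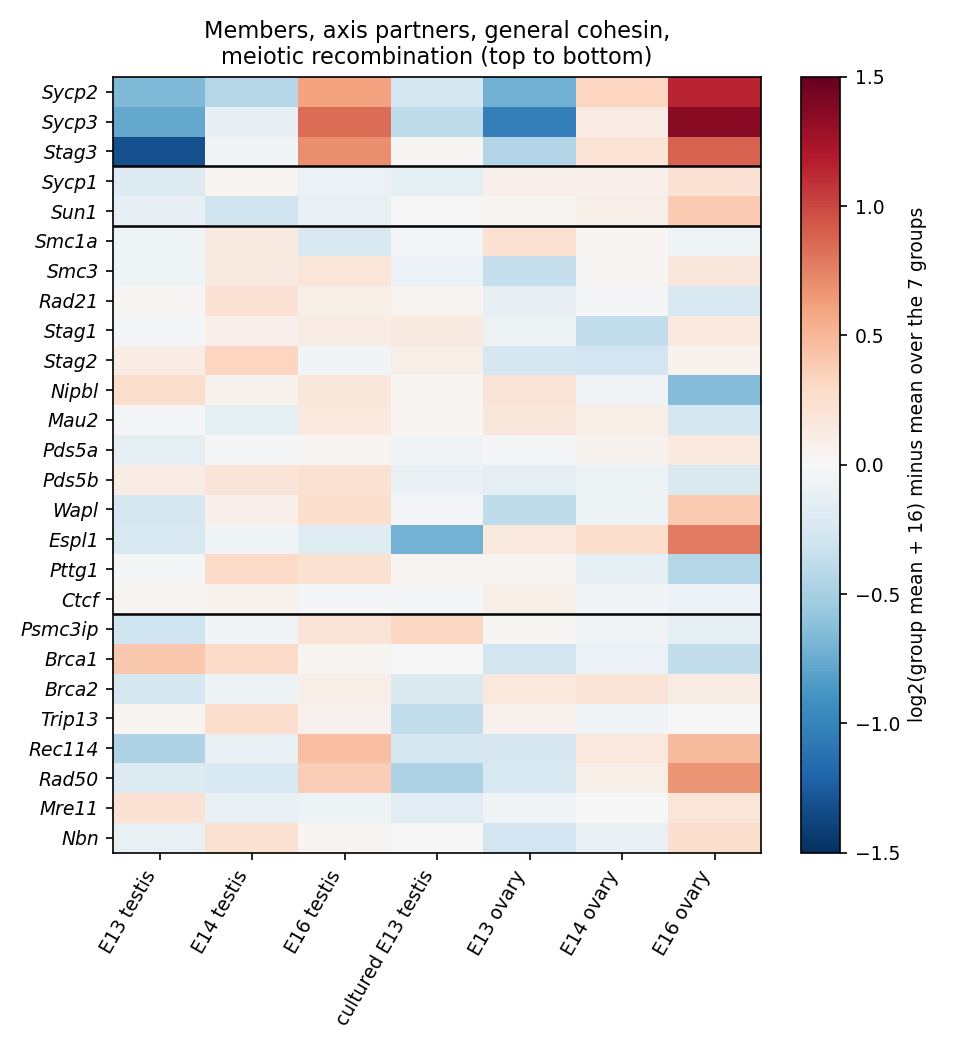
Level of the 3 axis genes, 2 partners, 13 general cohesin genes and 8 recombination genes in the 7 groups, as log2(group mean + 16) minus the mean over the groups; red is above and blue below that mean. The 3 axis genes in the top rows run from blue at E13 to red at E16 in both sexes, while most rows beneath stay pale.

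Retinoic acid is the signal best known for starting meiosis in the fetal ovary, and its pathway held calls of its own. Of 26 listed genes of meiotic entry and retinoid signalling, 17 were measured. In testis between E13 and E16, 1 rose and 1 fell: Aldh1a1, an enzyme that makes retinoic acid, went from 83.4 to 687 (log2 2.8, limma, adjusted p = 0.00358), and Crabp1, which binds it in the cytoplasm, fell by 1.17 (adjusted p = 0.0174). In ovary, Rbp4, the retinol carrier, rose by 2.88 (limma, adjusted p = 0.00503) and Crabp1 fell by 0.98 (adjusted p = 0.0464). The medians over the 17 genes were -0.0038 in testis and -0.05 in ovary. Stra8, the gatekeeper of meiotic entry, was not analysed here. Among 22 listed repressors that keep germline genes silent in other cells, 14 were measured and 0 passed in either sex, with medians of -0.02 and -0.08. E2f6, a repressor that binds E2F-type sites, was picked from these after its values were seen. It had means of 343, 276 and 271 in testis and 341, 288 and 222 in ovary (limma, adjusted p of 0.821 and 0.55). Its part in the levels of the 3 axis genes was not tested.

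Most other germ cell genes could not be set beside the axis genes. Of 38 listed germ cell markers, 10 were measured, and Ddx4, Pou5f1 and Dppa3 were not among them. Between E13 and E16, 1 of the 10 rose in testis, Ifitm3 (289.7 to 898.45, log2 1.57, limma, adjusted p = 0.014), a membrane protein that other cells make too, and 0 passed in ovary. The medians were 0.22 in testis and -0.12 in ovary. Their summed intensity ran from 561.9 to 712 in E13 testis, 859.7 to 969.4 in E14 testis, 1092.9 to 1277.4 in E16 testis and 1048.2 to 1410.9 in cultured testis. In ovary it ran from 686.8 to 727.6 at E13, 739.5 to 840.6 at E14 and 660.5 to 983.2 at E16. Ifitm3 carried the higher sums in later testis: without it, the 9 others summed to 289.4 to 405.1 in E13 testis, 262.1 to 378.9 in E14 testis, 248 to 325.4 in E16 testis and 248.8 to 275.3 in cultured testis. In ovary the 9 summed to 432.3 to 490.9 at E13, 323.1 to 442.1 at E14 and 250.3 to 460.3 at E16. No measured marker was at 0 in a group mean, but Zp1 and Bmp15, genes of growing oocytes, had group means of at most 12.3. Kit, the receptor on germ cells, had means of 29.1, 48.25 and 49.3 in testis and 43, 83.25 and 39.05 in ovary.

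Some somatic markers also moved with age. Summed over 6 measured of 8 listed, genes of the mesonephros, which adjoins the gonad, lay between 473.8 and 501.9 in E13 testis and between 145.7 and 235 in E16 testis. In ovary the sum lay between 434 and 461.9 at E13, between 426.9 and 612.5 at E14, and between 336.9 and 351.1 at E16. None of the 6 passed between E13 and E16 in either sex by limma. The 7 fetal Leydig cell genes all rose in testis over these days, and 5 of 11 measured Sertoli cell genes did. In ovary 0 of the 7 and 1 of the 11 passed. Listed genes of pre-granulosa cells, endothelium, red blood cells and macrophages gave no call between E13 and E16 in either sex. The part of these somatic genes in the levels of Sycp2, Sycp3 and Stag3, which share the same RNA pools, was not tested.

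The genes most like each of the 3 were found by Pearson's r over the 14 arrays, among 8858 probe sets with 1 symbol and a group mean of at least 50. Sycp2 met that minimum only through E16 ovary, where it is highest. For Sycp3 these were Ntpcr (0.96), Aatf (0.94), Sycp2 (0.94), Tex101 (0.93) and Acer3 (0.92). Tex101, a germ cell surface protein, had means of 75.15, 100.75 and 189.85 in testis and 76.35, 117.45 and 331.6 in ovary from E13 to E16, and rose in ovary (log2 1.90, limma, adjusted p = 0.0241) but did not pass in testis (1.14, adjusted p = 0.16). For Sycp2 they were Mt3, Psme1 and Sycp3 (each 0.94), then Aatf and Ntpcr (each 0.93). Mt3, a metallothionein, had means of 26.3, 27 and 160.3 in testis and 15.25, 89.45 and 357.95 in ovary. Stag3 had a different company: Sfmbt1 (0.92), Gkap1 (0.91), Serpinb1a (0.89), Sycp3 (0.86) and Rec114 (0.85). Stag3 and Sycp2 correlated at 0.81. Over the 7 group means, r was 0.97 between Sycp2 and Sycp3, 0.87 between Sycp3 and Stag3 and 0.85 between Sycp2 and Stag3. The points share groups, pools and array scaling, and these values are a description only.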

How the data were processed

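RNA from 14 pools of fetal rat gonads was read on single-channel Affymetrix arrays; target was biotin-labelled by standard Affymetrix procedures, per the labels' protocols. The deposited values are intensities on a linear scale, already scaled by the authors: the mean after trimming 2% at each end was 125 on every array. The summarising software is not given in the sources used here. Of 15923 probe sets, 57 controls were left out. The platform annotation gave 12783 probe sets 1 symbol, 312 several and 2771 none; promoters came from RefSeq (GRCr8).

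Here, log2(intensity + 16) was fitted with limma 3.58.1 in R 4.3.3 (lmFit, eBayes; 7 groups, 14 arrays, 7 residual and 4.16 prior degrees of freedom), and p-values of 13 comparisons were adjusted by Benjamini-Hochberg over 15866 probe sets. The script was run on simulated data with independent noise on each array, which cannot speak to effects shared between arrays. The offset of 16 understates changes of dim probe sets. The pools of a group were independent, but their arrays also lay in different inferred chip batches. The p-values rest on the spread between arrays of a group, in which pool and chip batch cannot be told apart. This spread is shared by limma over the 7 groups. The number of pools, 2 a group, limits the precision. Where a gene had several probe sets, the brightest was used. Named genes are the 3 axis genes, list genes that passed or were among the 4 brightest of their list, and the 5 genes most like each; E2f6, Zp1 and Bmp15 were added after their values were seen. The 3 genes and all lists were chosen with earlier results of these data known. Alternatives were the offset, quantile normalization, a filter on dim probe sets (mean under 50 in every group), chip period, chip batch and replicate number as blocks, only the groups compared, and leaving out arrays.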

Additional observations from a re-analysis of the deposited data

How the results depend on the processing

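Each of the 39 results (3 genes, 13 comparisons) was refitted with limma in 24 settings. Of 936 refits, 881 kept direction and side of the threshold, 46 lost a call, 1 gained one and 8 changed sign. All 46 losses were among the 144 refits of the 6 calls, since the other 33 results had no call to lose. Of the 8 sign changes, 0 were among those 144. Calls were lost as follows, with log2 differences. With an offset of 1, Stag3 gave 1.56 in ovary (E16 minus E13) and 2.0 after culture (against E13); with 64, 0.72 after culture. Quantile normalization gave 1.28 for Stag3 in ovary, and chip period as a block gave 1.12 in ovary and 1.16 after culture. With only the groups compared, which leaves fewer samples, all 6 were lost at unchanged sizes: Sycp3 1.63 and Stag3 2.05 in testis, Sycp2 1.86, Sycp3 2.37 and Stag3 1.32 in ovary, Stag3 1.37 after culture. Without the 4 arrays of discordant Xist all 6 were lost too: Sycp3 1.32 and Stag3 1.70 in testis, Sycp2 1.75, Sycp3 2.24 and Stag3 1.38 in ovary, Stag3 0.87 after culture. Without the 2 arrays of highest actin ratio, Stag3 gave 1.26 in ovary and 1.52 after culture. With chip batch as a random block (consensus correlation 0.38), Sycp3 in cultured against E16 testis was called at -1.22. Signs changed only in differences that had not passed: testis minus ovary at E13 gave -0.079 for Sycp2 under quantile normalization and -0.0038 for Sycp3 with chip period as a block; without the 4 arrays the mean sex difference of Sycp3 was 0.038, and cultured minus E13 testis was -0.047 for Sycp2 and -0.098 for Sycp3. Leaving out each array in turn, the calls ranged from 1.32 to 1.93 (Sycp3) and 1.70 to 2.41 (Stag3) in testis, from 1.75 to 1.97 (Sycp2), 2.24 to 2.51 (Sycp3) and 1.26 to 1.38 (Stag3) in ovary, and from 1.02 to 1.72 (Stag3) after culture. Differences without a call ranged from -0.084 to 0.53 (Sycp3, sexes at E13), -0.50 to 0.075 (Stag3, sexes at E14) and -0.070 to 0.76 (Sycp2, after culture). Except where a setting removes samples, the cause was not tested. Replicate numbers were not taken as pairs, since the labels give no shared source and not every correlation of deviations was over 0.1 (15 of 21, from -0.05 to 0.53); a shared replicate effect is not excluded; with the replicate block no call on the 3 genes changed, for example Stag3 in testis at 2.05 (limma, adjusted p = 0.00484). Counts of probe sets that passed in either direction moved more: 150 in testis between E13 and E16 (6 to 252 over settings), 141 in ovary (0 to 276), 221 after culture (5 to 378), 276 between the sexes at E16 (11 to 594) and 366 as their mean (48 to 815). The other comparisons gave 0 to 23, and 0 to 93 over settings. Dim signal limits Sycp2 at E13 most, since values near the floor have no reliable order.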
